A study of Homo sapiens with 20 samples.

Results

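The amino acid transporters of the solute carrier (SLC) families were followed as a set of 33 genes among the 57500 genes counted in each library. The members are a list of gene names. They cover the SLC3A2 heavy chain and its SLC7 light chains, the cationic carriers of SLC7, the SLC1, SLC6, SLC38, SLC36, SLC16 and SLC43 carriers, and 3 mitochondrial carriers of SLC25. All 33 were found by symbol through their Ensembl identifiers, and 31 passed the filter on low counts in every comparison. SLC1A2 and SLC16A10 did not.

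RNA was sequenced from 20 samples of NTERT cells, a human keratinocyte line immortalised with telomerase, in 4 groups of 5 replicates, since WT and GCN2KO cells were each left unwounded or put through high-density wounding (HDW). All 4 groups had been grown to confluence and differentiated with calcium and serum before the experiment. In HDW, pipet tips are drawn across the monolayer to cut a grid of scratches, and RNA was extracted 6 h after wounding. GCN2KO cells are an early passage pool edited by CRISPR/CAS9 at EIF2AK4, the gene for GCN2, and not a clone, and the WT cells carry a control guide. Which of the study's guides made the sequenced pool is not given in the sources used here. Beyond being called replicates, the samples are not said to come from separate experiments, so p-values measure only the spread between these samples.

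Amino acid transporters bring in the building blocks of protein, exchange an internal amino acid for an external one, or let amino acids leave the cell. GCN2 is a protein kinase that senses uncharged tRNA when amino acids are scarce, phosphorylates eIF2α and so raises translation of the transcription factor ATF4. Many transporter genes, among them SLC7A11, SLC3A2, SLC7A5, SLC7A1, SLC1A4, SLC6A9 and SLC38A2, are textbook targets of ATF4. In NTERT cells the study found that wounding raised ATF4 protein whether or not GCN2 was functional. In keratinocytes, transporters supply glutamine, leucine, arginine and cystine for growth and for glutathione.

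Levels are counts per 1000000 counts (CPM) after TMM scaling of the library sizes, and log2 fold changes carry their standard error (SE) and an adjusted p from the quasi-likelihood test of edgeR, corrected over all genes tested by Benjamini-Hochberg. A member is said to be higher or lower where the adjusted p is at most 0.05. It is called a DE gene where the log2 fold change is also at least 1 in size. The libraries held 14083504 to 34611570 counts. EIF2AK4 checked the labels, at 138 to 158 CPM in all 10 WT libraries and 28.0 to 33.5 in all 10 GCN2KO libraries. The 9 keratinocyte markers summed to between 14766 and 19783 CPM in every library, none of them at 0, and moved with the genotype in both directions. In GCN2KO against WT cells, 2 of the 9 were higher and 5 lower unwounded, and 3 were higher and 4 lower after HDW. IVL, a marker of differentiating layers, was higher in GCN2KO cells by a log2 fold change of 1.83 (SE 0.131, adjusted p = 4.94e-09) unwounded and 1.96 (SE 0.104, adjusted p = 1.92e-09) after HDW. KRT10, another marker of those layers, did not pass the test unwounded (0.23, SE 0.134, adjusted p = 0.144). The basal layer genes KRT14 (-0.85 unwounded and -0.77 after HDW), ITGB4 (-0.95 and -0.90), ITGA6 (-0.73 and -0.56) and TP63 (-0.52 and -0.43) were lower on the log2 scale, while KRT5 was higher (0.50 and 0.52). With HDW, 4 of the 9 were higher and 3 lower in WT cells, and 4 were higher in GCN2KO cells. For their interaction the lowest adjusted p was 0.117, for PKP1. The 5 melanocyte markers summed to 4.54 to 22.3, with TYR at 0 throughout. The summed melanocyte list was higher in GCN2KO libraries (12.0 to 22.3) than in WT (4.54 to 7.28). Unwounded, MITF was higher in GCN2KO (log2 fold change of 1.98, SE 0.17, adjusted p = 3.94e-08). PMEL and MLANA did not pass the test, and TYR and DCT were not tested. The 4 leukocyte markers summed highest in WT unwounded libraries (56.1 to 65.0, against 16.7 to 44.6 elsewhere). Unwounded, CD14 was lower in GCN2KO (-1.10) and CD68 higher (1.00), and PTPRC and CD3E were not tested. Other genes on its strand share 81.6% of the exonic bases of CD68. The part of these 3 lists in the results was not tested. Unwounded GCN2KO replicates 3 and 5 stood apart from the other 3 of their group on the third principal component (5.1% of the variance), and results that rest on them are also given without them. On the first component (67.9%), GCN2KO unwounded replicate 1 lay at 29 against 39.8 to 46.1 in its group, and GCN2KO HDW replicate 5 at 27 against 40.2 to 45.6. Without that unwounded replicate 1, 14 members were higher and 6 lower in GCN2KO against WT unwounded. These counts were 6 and 1 for HDW in GCN2KO cells, and 3 and 11 for the interaction. Over all genes, in the same order, they were 5158 and 5171, 1504 and 1320, and 1883 and 2115. Without HDW replicate 5, 14 members were higher and 12 lower in GCN2KO against WT after HDW. These counts were 5 and 3 for HDW in GCN2KO cells, and 3 and 11 for the interaction. Over all genes, in the same order, they were 5887 and 5873, 1891 and 1775, and 1821 and 2108. In bulk RNA, fewer cells with a transcript and less of it per cell cannot be told apart.

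The transporter mRNA of these cells was dominated by a few plasma membrane exchangers. SLC7A5, the large neutral amino acid exchanger that imports leucine, was the most abundant member in WT unwounded cells. It was at 683 ± 75.1 FPKM (CPM per kilobase of exon). By the length of all merged exons, it held 52.9% of the summed FPKM of all 33 members. SLC1A5, a glutamine exchanger, followed at 143 ± 13.1 FPKM, with SLC3A2 at 125 ± 16.9 and SLC38A2, a sodium-coupled importer of small neutral amino acids, at 121 ± 3.06. The SD ranges of SLC1A5 and SLC3A2 overlapped, and SLC3A2 and SLC38A2 differed by less than the SD of SLC3A2. By the same length, SLC38A1 (62.8 ± 1.21 FPKM), SLC38A5 (41.0 ± 0.775) and SLC7A1 (24.7 ± 2.27) came next, each below the one before by more than their SDs.

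**Figure D1:**
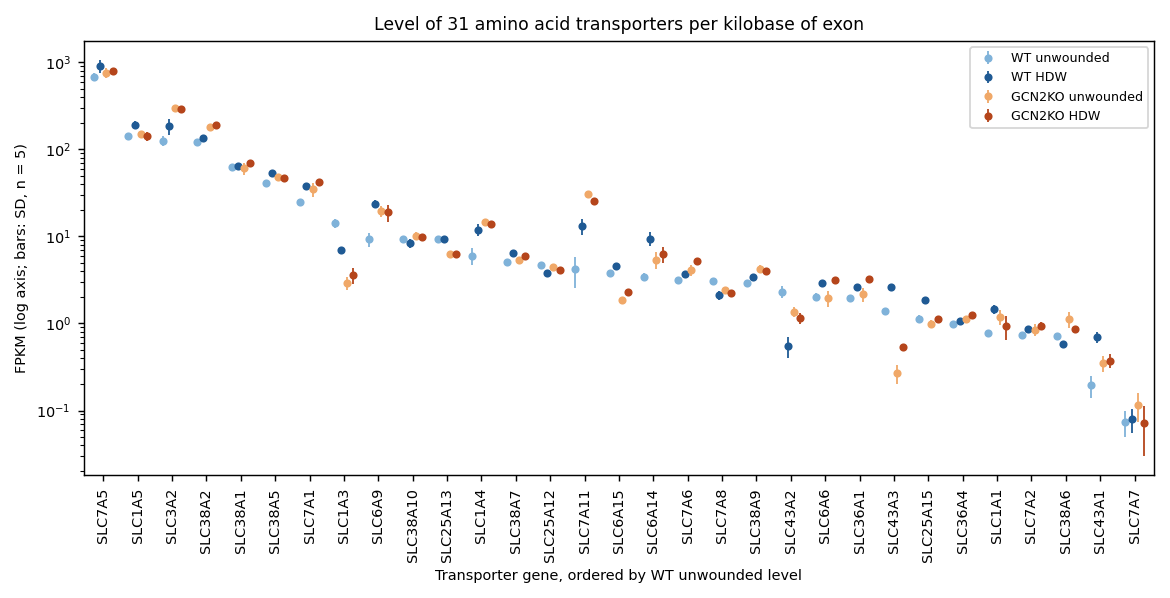
Mean FPKM of 31 transporters (log axis, bars: SD over 5 samples) in each of the 4 groups, ordered from left to right by the WT unwounded mean. SLC7A5 was at 683 FPKM in WT unwounded cells and SLC7A7, at the right, at 0.0744.

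In GCN2KO cells the order at the top differed. SLC3A2 stood second at 296 ± 21.2 FPKM unwounded and 288 ± 18.7 after HDW, above SLC38A2 (179 ± 12.8 and 191 ± 11.9) and SLC1A5 (149 ± 14.5 and 141 ± 15.6). Order between genes depends on the length used. With the canonical transcript's length in place of all merged exons, SLC3A2 came to 424 FPKM against 714 for SLC7A5 in WT unwounded cells. In GCN2KO unwounded cells it came to 1005 against 791. In WT unwounded cells the canonical length also put SLC38A5 (82.8) above SLC38A1 (77.6). There SLC1A3 went from 14.1 to 76.5 FPKM, above SLC7A1 (25.9). The share of 52.9% for SLC7A5 holds for merged exons only. The canonical length was chosen after seeing the data. The lower end held SLC43A1 (0.196 ± 0.0559 FPKM in WT unwounded cells) and SLC7A7 (0.0744 ± 0.0246). SLC16A10, an exporter of aromatic amino acids, had 0 to 7 counts per library, and SLC1A2, the main astrocyte glutamate carrier, had a single count in 1 of the 20 libraries.

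Unwounded GCN2KO cells carried more mRNA of the cystine exchanger than WT cells and less of SLC43A3. Neutral amino acid carriers went both ways, with SLC1A4 and SLC38A2 among the higher and SLC6A15, SLC43A2 and SLC7A8 among the lower. So did the glutamate carriers, with SLC1A1 higher and SLC1A3 lower. Of 31 members tested, 14 were higher and 6 lower in GCN2KO, while 33.4% of the 15348 genes tested were higher and 33.1% lower. The DE genes among them were SLC7A11, SLC1A4, SLC3A2 and SLC6A9, which were higher, and SLC43A3, SLC1A3 and SLC6A15, which were lower. DE genes made up 8.21% of all genes tested on the higher side and 8.22% on the lower. The groups did not overlap for 13 higher and 6 lower members, against 26.3% and 27% of all genes. The median log2 fold change was 0.21 over the members and 0.0042 over all genes. Without GCN2KO replicates 3 and 5, 18 members were higher and 6 lower. The count over all genes in that fit is not given here. Leaving out replicate 3 or 5 alone, 4997 or 4995 of all genes were higher and 4954 or 4960 lower.

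After HDW the genotypes differed in both directions. GCN2KO cells were higher for 13 members and lower for 12, beside 35.9% and 35.8% of the 15855 genes tested. SLC43A2 was the DE gene on the higher side and SLC43A3 on the lower, beside 7.1% and 7.83% of all genes. Without WT HDW replicate 2 or GCN2KO HDW replicate 5, 4 members were DE genes in place of these 2. The count of DE genes over all genes in those fits is not given here. By the adjusted p alone, 5709 of all genes were higher and 5662 lower without WT HDW replicate 2. Without GCN2KO HDW replicate 5 they were 5887 and 5873, in place of 5690 and 5677 in the main fit. The groups did not overlap for 9 members on each side, and for 27.9% of all genes on the higher side and 29.3% on the lower. The median over the members was 0.09, and 0.0020 over all genes.

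HDW raised most transporter mRNAs in WT cells. There 21 members were higher and 5 lower after HDW, against 26.1% and 25.2% of the 15348 genes tested. SLC43A1, SLC7A11, SLC6A14 and SLC6A9 were DE genes on the higher side, and SLC43A2 and SLC1A3 on the lower, beside 2.62% and 1.55% of all genes. The groups did not overlap for 18 higher and 5 lower members, beside 19.2% and 17.7% of all genes. The members' median log2 fold change was 0.35, against -0.0024 over all genes.

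In GCN2KO cells HDW changed 7 of the 31 members, a share near that of all genes. Of them 5 were higher and 2 lower, against 11.9% and 10.8% of the 15791 genes tested, and none was a DE gene by edgeR or by DESeq2, beside 0.475% of all genes on the higher side and 0.196% on the lower. SLC43A3 lay just short of that fold at 0.99 and passed it with library size alone and without the 2 unwounded libraries that stood apart. No member reached that fold at any p in the fit itself. The groups did not overlap for 6 higher members and 1 lower, beside 7.52% and 7.65% of all genes. The median was 0.08 over the members and -0.0010 over all genes. Unwounded GCN2KO replicates 3 and 5 bore on this count, since without them 4 members were higher and 1 lower. The count over all genes in that fit is not given here. Leaving out replicate 3 or 5 alone, 1272 or 1245 of all genes were higher and 1150 or 972 lower.

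**Figure D2:**
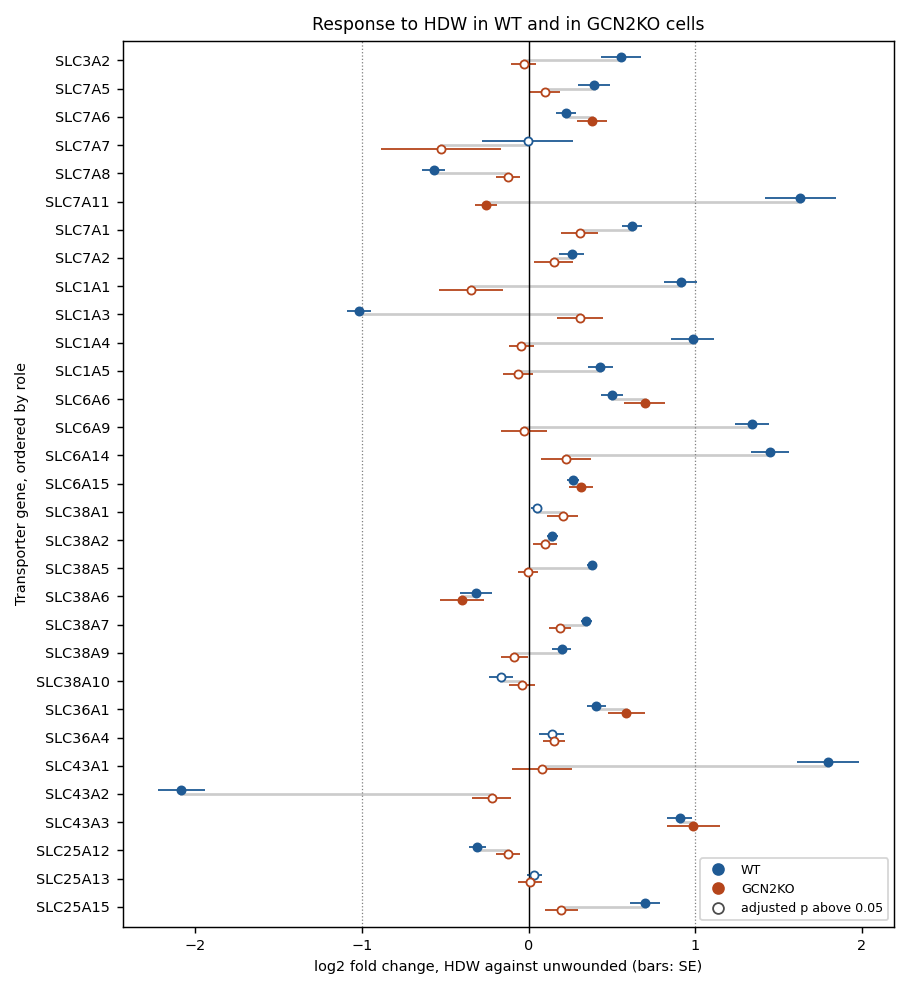
Log2 fold change of HDW against unwounded for 31 transporters in WT (blue) and GCN2KO cells (red), with SE bars and open symbols where the adjusted p was above 0.05; dotted lines mark a log2 fold change of 1 in size. Most blue points lie to the right of 0, with 21 higher and 5 lower, and most red points lie near 0, with 5 higher and 2 lower.

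The difference between the wounding responses was tested as an interaction of genotype and HDW over all 20 libraries, given as the response in GCN2KO minus the response in WT. It was lower for 11 members and higher for 3, beside 12.5% and 11.2% of the 16536 genes tested. With library size alone as the scaling, 1510 of all genes were lower and 2477 higher, in place of 2075 and 1851. DE genes by this test were 6 members on the lower side and 2 on the higher, against 2.15% and 1.16% of all genes. The median was -0.12 over the members and -0.0090 over all genes. This test shares its samples with the pairwise comparisons, and GCN2KO against WT unwounded and HDW against unwounded in WT cells share the 5 WT unwounded samples, so their values are given side by side only. The heat map of all 20 libraries shows the members by role.

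**Figure D3:**
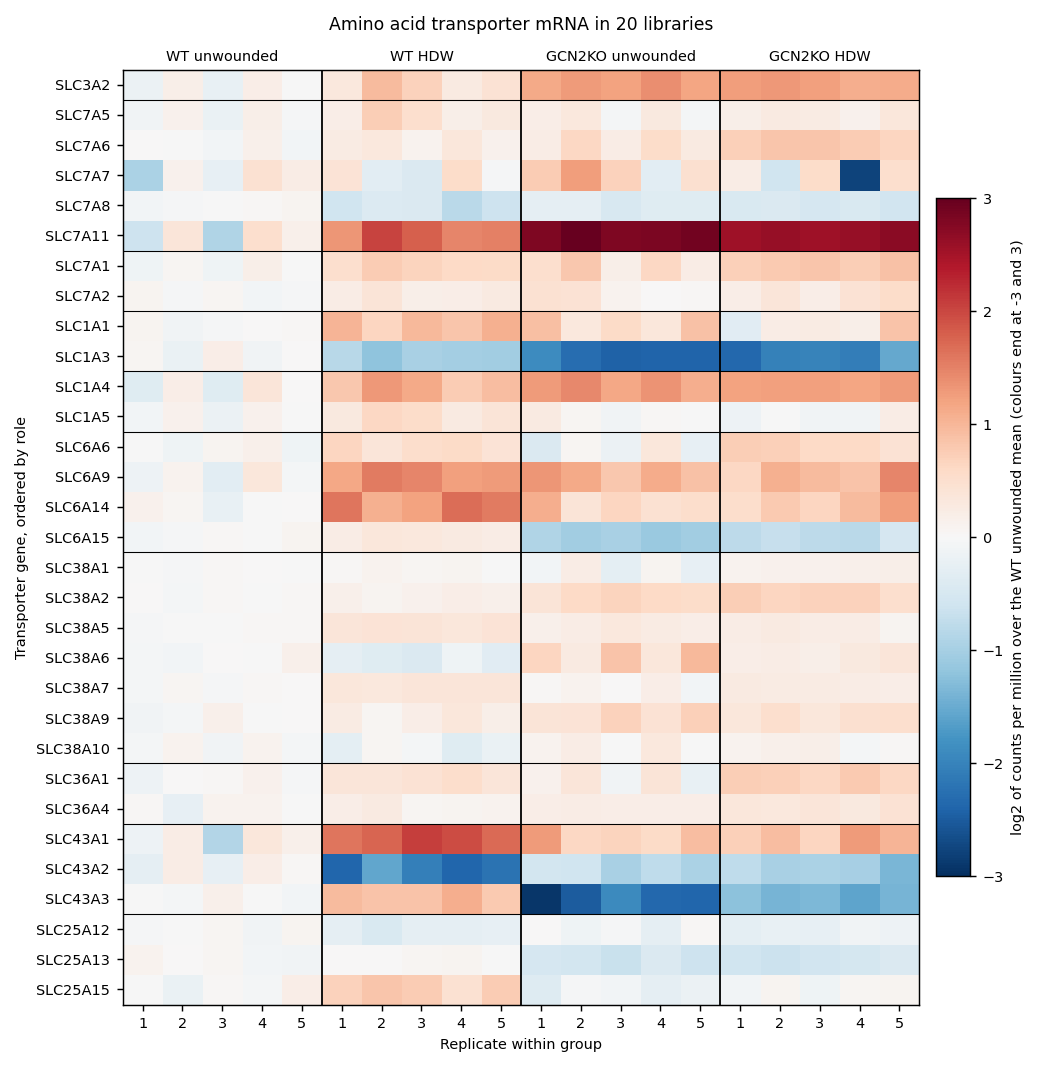
Log2 of the level of 31 transporters over their WT unwounded mean (colour) in each of 20 libraries (columns, by group and replicate), with genes ordered by role. SLC7A11 is red in all 10 GCN2KO libraries, at 236 to 329 CPM against 21.6 to 57.3 in WT unwounded, while SLC1A3 and SLC43A3 are blue there.

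SLC3A2 (CD98, chr11:62856004-62888880, GRCh38) is the heavy chain that carries the light chains of SLC7 to the plasma membrane. Its level was 708, 899, 684, 921 and 788 CPM in the 5 WT unwounded samples and 991, 1554, 1286, 968 and 1086 in the WT HDW samples. In GCN2KO cells it was 1767, 1945, 1844, 2106 and 1806 unwounded and 1912, 1979, 1882, 1698 and 1737 after HDW. Every GCN2KO sample was above every WT sample, and the WT HDW samples were above the WT unwounded ones. GCN2KO and WT cells differed by a log2 fold change of 1.25 (SE 0.0925, adjusted p = 7.51e-09) unwounded and 0.65 (SE 0.11, adjusted p = 0.000116) after HDW. HDW changed SLC3A2 by a log2 fold change of 0.55 (SE 0.119, adjusted p = 0.0011) in WT cells, and the estimate in GCN2KO cells was -0.03 (SE 0.0726, adjusted p = 0.796). The responses differed with a log2 difference of -0.60 (SE 0.149, adjusted p = 0.00509).

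SLC7A11 (xCT, chr4:138164097-138242349) is the light chain that imports cystine in exchange for glutamate and so feeds glutathione synthesis. Its level was 26.4, 52.4, 21.6, 57.3 and 44.7 CPM in WT unwounded samples and 101, 166, 140.3, 111 and 115 after HDW. GCN2KO samples held 284, 329, 280.1, 286 and 303 unwounded and 236, 246, 237, 247 and 266 after HDW. None of the 4 groups overlapped another, and the order ran from WT unwounded through WT HDW and GCN2KO HDW to GCN2KO unwounded. The GCN2KO to WT difference was a log2 fold change of 2.87 (SE 0.206, adjusted p = 5.25e-09) unwounded, the largest of any member on the higher side, and 0.96 (SE 0.108, adjusted p = 2.16e-06) after HDW. In WT cells HDW raised it by a log2 fold change of 1.63 (SE 0.213, adjusted p = 1.27e-05). In GCN2KO cells it was lower after HDW with a log2 fold change of -0.26 (SE 0.0663, adjusted p = 0.0157), and this call was lost without GCN2KO HDW replicate 3 (adjusted p = 0.0509) and with all 20 samples in one fit (adjusted p = 0.236). The interaction was a log2 difference of -1.90 (SE 0.246, adjusted p = 5.93e-06). Of its exonic bases, 8.97% overlap the antisense gene SLC7A11-AS1, and the strand setting of the counts is not given in the sources used here. These levels are mRNA, and the proteins went the other way in the study's immunoblots. SLC3A2 protein was lower in GCN2KO cells with and without wounding, and SLC7A11 protein was partly reduced in wounded GCN2KO cells.

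The light chain SLC7A5 differed between the groups by smaller amounts. It was at 3253 ± 358 CPM in WT unwounded cells and 3602 ± 461 in GCN2KO unwounded cells, a log2 fold change of 0.15 (SE 0.101, adjusted p = 0.199), and after HDW the estimate was -0.16 (SE 0.0939, adjusted p = 0.138). HDW raised it by a log2 fold change of 0.39 (SE 0.0983, adjusted p = 0.0036) in WT cells, with groups that overlapped. In GCN2KO cells the estimate was a log2 fold change of 0.10 (SE 0.0916, adjusted p = 0.461), and the responses differed by -0.31 (SE 0.143, adjusted p = 0.123), which did not pass the test. SLC7A6, which exchanges cationic for neutral amino acids, was higher in GCN2KO cells both unwounded (log2 fold change of 0.39, SE 0.0887, adjusted p = 0.00107) and after HDW (0.53, SE 0.0561, adjusted p = 1.24e-06). After HDW it was higher by a log2 fold change of 0.23 (SE 0.0597, adjusted p = 0.00519) in WT cells, with groups that overlapped, and by 0.38 (SE 0.087, adjusted p = 0.00887) in GCN2KO cells, a call lost without the 2 unwounded libraries that stood apart (adjusted p = 0.0519). More than any other member it shares exons, with 55.6% of its exonic bases on the opposite strand from SLC7A6OS, and reads of the pair cannot be told apart without strand.

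SLC7A8 (chr14:23125295-23183674), a neutral amino acid exchanger close to SLC7A5, went the opposite way. Its levels were 17.6, 18.2, 18.4, 19.1 and 19.7 CPM in WT unwounded samples and 12.4, 14.05, 13.8, 10.5 and 12.2 after HDW, with GCN2KO samples at 15.4, 15.5, 13.3, 14.5 and 14.4 and 13.6, 13.7, 13.2, 13.5 and 12.5. WT unwounded samples were above all others. SLC7A8 was lower in unwounded GCN2KO cells with a log2 fold change of -0.35 (SE 0.0704, adjusted p = 0.000378) and fell in WT cells after HDW (-0.57, SE 0.0702, adjusted p = 7e-06). In GCN2KO cells the HDW estimate was a log2 fold change of -0.12 (SE 0.0712, adjusted p = 0.216), and the interaction was 0.43 (SE 0.0992, adjusted p = 0.00246). SLC7A7, the cationic exchanger of gut and kidney, stayed between 0.0582 and 0.96 CPM in all libraries and passed no test.

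**Figure D4:**
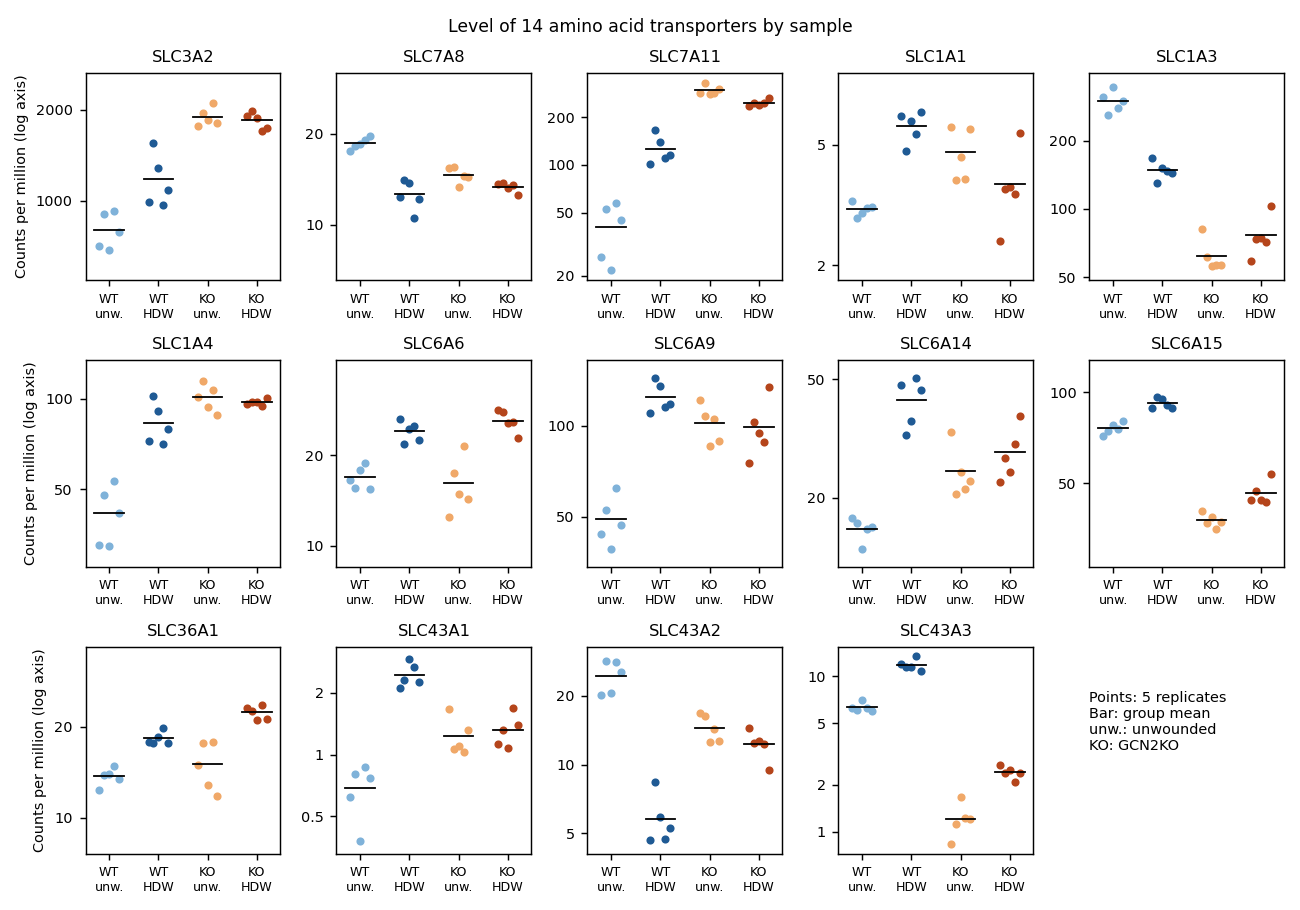
CPM (log axes) of 14 transporters in each of the 5 replicates of 4 groups (points, with the group mean as a bar). SLC3A2 and SLC7A11 are highest in both GCN2KO groups, SLC6A9, SLC6A14 and SLC43A1 have their highest mean in WT HDW, and SLC43A2 is lowest there at 4.69 to 8.37.

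The cationic carriers SLC7A1 and SLC7A2 import arginine and lysine. SLC7A1 was at 190.2 ± 17.5 CPM in WT unwounded cells and 267 ± 50.4 in GCN2KO unwounded cells, where replicates 3 and 5 (213 and 223) were the lowest and replicate 3 lay within the WT range. It was higher in GCN2KO cells by a log2 fold change of 0.49 (SE 0.11, adjusted p = 0.000897) unwounded and 0.16 (SE 0.0512, adjusted p = 0.0104) after HDW, and this last call was lost with all 20 samples in one fit (adjusted p = 0.117). HDW raised it in WT cells by a log2 fold change of 0.62 (SE 0.0601, adjusted p = 5.76e-07), with groups that did not overlap, and the estimate in GCN2KO cells was 0.31 (SE 0.109, adjusted p = 0.0559). SLC7A2 was far less abundant, at 5.76 ± 0.257 CPM in WT unwounded cells, and passed the test in WT cells alone, where HDW raised it by a log2 fold change of 0.26 (SE 0.0734, adjusted p = 0.00826).

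Among the SLC1 carriers, the neutral exchanger SLC1A4, like SLC3A2 and SLC7A11, was higher in GCN2KO cells in both comparisons. SLC1A4 (chr2:64988477-65023865) exchanges alanine, serine, cysteine and threonine. Its level was 32.6, 48.0, 32.6, 53.2 and 41.9 CPM in WT unwounded samples, 72.4, 102, 91.2, 70.6 and 79.0 after HDW, with GCN2KO samples at 101, 114, 93.8, 107 and 88.4 unwounded and 95.7, 97.7, 97.6, 94.2 and 100.4 after HDW. WT unwounded samples were below all others, and WT HDW samples overlapped those of GCN2KO HDW. The GCN2KO to WT difference was a log2 fold change of 1.28 (SE 0.123, adjusted p = 1.54e-07) unwounded and 0.23 (SE 0.0848, adjusted p = 0.0281) after HDW. The call after HDW was lost without WT HDW replicate 1, 4 or 5 (adjusted p = 0.0775, 0.0767 and 0.0663) and with all 20 samples in one fit (adjusted p = 0.0774). HDW raised SLC1A4 by a log2 fold change of 0.98 (SE 0.129, adjusted p = 1.36e-05) in WT cells. The estimate in GCN2KO cells was a log2 fold change of -0.043 (SE 0.0727, adjusted p = 0.7), and the interaction was -1.04 (SE 0.16, adjusted p = 4.45e-05).

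SLC1A5, its close relative that exchanges glutamine, differed between the genotypes after HDW. It was at 477 ± 43.8 CPM in WT unwounded cells, 645 ± 71.5 in WT cells after HDW, and 495 ± 48.2 and 471 ± 51.9 in the same GCN2KO groups. The unwounded genotypes differed by a log2 fold change of 0.058 (SE 0.0826, adjusted p = 0.553), which did not pass the test, while after HDW GCN2KO cells were lower at -0.45 (SE 0.0821, adjusted p = 0.000194) with no overlap. HDW raised SLC1A5 in WT cells by a log2 fold change of 0.43 (SE 0.0734, adjusted p = 0.00016), and the interaction was -0.51 (SE 0.12, adjusted p = 0.00333). An unnamed gene on the opposite strand overlaps 23.8% of its exonic bases.

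The glutamate carriers SLC1A1 and SLC1A3 moved in opposite directions with HDW in WT cells. SLC1A3 (EAAT1, chr5:36596588-36688334), a high-affinity glutamate and aspartate importer, was at 312, 259, 346, 280.2 and 301 CPM in WT unwounded samples and 169, 130.2, 152, 147 and 145 in WT HDW samples. GCN2KO samples held 81.3, 61.0, 55.8, 56.3 and 56.7 unwounded and 58.7, 73.7, 74.4, 71.5 and 104 after HDW. All WT samples were above all GCN2KO samples, and HDW samples were below unwounded ones in WT cells. SLC1A3 was lower in GCN2KO cells with a log2 fold change of -2.26 (SE 0.11, adjusted p = 7.9e-11) unwounded and -0.96 (SE 0.116, adjusted p = 4.39e-06) after HDW. HDW lowered it with a log2 fold change of -1.02 (SE 0.0732, adjusted p = 2.59e-08) in WT cells. In GCN2KO cells the estimate was a log2 fold change of 0.31 (SE 0.139, adjusted p = 0.118), which passed the test only without unwounded replicate 1 (0.42, adjusted p = 0.0374), and the interaction was 1.31 (SE 0.167, adjusted p = 5.03e-06). SLC1A3 lies on chromosome 5, where the median difference of GCN2KO from WT was 0.35 (log2) unwounded over 695 genes and 0.36 after HDW over 721 genes, beside -0.12 to 0.08 and -0.10 to 0.05 on the other chromosomes. SLC1A3 itself was lower in both comparisons, and the part of that shift was not tested. GCN2KO HDW replicate 5 was the highest of its group, and without it the genotype difference after HDW was -1.09 (log2).

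SLC1A1 (EAAT3, chr9:4490468-4587469), which imports glutamate and cysteine, was a low-abundance gene, at 3.25, 2.86, 2.98, 3.10 and 3.12 CPM in WT unwounded samples and 6.25, 4.77, 5.99, 5.45 and 6.41 after HDW. GCN2KO samples held 5.73, 3.84, 4.55, 3.86 and 5.67 and 2.41, 3.58, 3.62, 3.43 and 5.50, where replicate 1 was the lowest after HDW and replicate 5 the highest. GCN2KO cells were higher unwounded by a log2 fold change of 0.64 (SE 0.136, adjusted p = 0.000618) and lower after HDW at -0.64 (SE 0.166, adjusted p = 0.00326). HDW raised SLC1A1 in WT cells by a log2 fold change of 0.91 (SE 0.0999, adjusted p = 2.04e-06). The estimate was a log2 fold change of -0.35 (SE 0.19, adjusted p = 0.196) in GCN2KO cells, which passed the test only without HDW replicate 5 (-0.54, adjusted p = 0.0303), and the interaction was -1.27 (SE 0.226, adjusted p = 0.000226). Without that replicate the genotype difference after HDW was -0.83 (log2).

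A short sequence known from ATF4 target genes was looked for in the RefSeq promoter windows (GRCh38.p14, 250 bases before to 50 after each start), because several members, SLC3A2, SLC7A11 and SLC1A4 among them, are known ATF4 targets. The letters TGATGNAA, the core of the C/EBP-ATF response element, were searched on both strands, where N is any base. They occurred in 3.62% of all 35116 windows and in at least 1 window of 4.46% of 27305 genes. Windows were found for 27 of the 33 members, 48 windows in all, and 6 members held the letters. SLC7A11, SLC7A2, SLC1A2, SLC6A6, SLC6A15 and SLC43A3 had no entry. The 6 matches are shown with their flanks to 30 bases on the strand of the gene, 5′ to 3′, with the match in capitals. The match in SLC3A2 and SLC1A4 is on the other strand, so the capitals there read as the reverse complement.
SLC3A2, chr11:62881719-62881748 (+): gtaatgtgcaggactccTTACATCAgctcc
SLC1A4, chr2:64989381-64989410 (+): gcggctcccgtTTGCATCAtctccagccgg
SLC7A1, chr13:29595663-29595692 (-): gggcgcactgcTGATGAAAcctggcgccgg
SLC1A5, chr19:46784893-46784922 (-): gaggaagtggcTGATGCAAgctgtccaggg
SLC1A3, chr5:36596357-36596386 (+): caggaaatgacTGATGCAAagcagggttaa
SLC38A1, chr12:46266502-46266531 (-): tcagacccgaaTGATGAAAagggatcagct

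Those 6 members did not move together. In unwounded cells SLC3A2, SLC1A4 and SLC7A1 were higher in GCN2KO, SLC1A3 was lower, and SLC1A5 and SLC38A1 did not pass the test. Relative to the start, the first base of the match lay at 37 in SLC3A2, 7 in SLC7A1, -7 in SLC1A4, -97 in SLC1A5, -220 in SLC1A3 and -4 in SLC38A1. The letters TGACNNNGC, the core of the antioxidant response element, occurred in 13.3% of windows and 16.1% of genes, and in the windows of 8 members, among them SLC3A2, SLC7A5, SLC7A1 and SLC1A5. A match describes the letters of the window and shows no binding.

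The SLC6 carriers take up amino acids with sodium, and HDW raised all 4 of them in WT cells with groups that did not overlap. SLC6A9 (GLYT1, chr1:43991500-44031467), a glycine importer, was at 43.9, 52.5, 39.2, 62.2 and 46.8 CPM in WT unwounded samples and 109.9, 144, 135, 115 and 118 after HDW. GCN2KO samples held 122, 108, 85.6, 105 and 89.3 unwounded and 75.1, 103, 94.8, 88.3 and 135 after HDW. Unwounded WT samples were the lowest, and the other 3 groups overlapped. The GCN2KO to WT difference was a log2 fold change of 1.06 (SE 0.119, adjusted p = 8.79e-07) unwounded and -0.33 (SE 0.125, adjusted p = 0.0296) after HDW. That second call was lost on leaving out WT HDW replicate 2 or 3 or GCN2KO HDW replicate 1, 3 or 4 (adjusted p = 0.0625 to 0.0721) and with library size alone (adjusted p = 0.0511). HDW raised SLC6A9 in WT cells by a log2 fold change of 1.34 (SE 0.104, adjusted p = 5.59e-08). The estimate in GCN2KO cells was a log2 fold change of -0.029 (SE 0.138, adjusted p = 0.9), and the interaction was -1.38 (SE 0.186, adjusted p = 9.45e-06). GCN2KO HDW replicate 5 was the highest of its group, and without it the genotype difference after HDW was -0.46 (log2). CCDC24 overlaps 7.87% of its exonic bases on the opposite strand.

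SLC6A14 (chrX:116436606-116461458) carries nearly all neutral and cationic amino acids and is known from mucosal and inflamed epithelia. Its level was 17.0, 16.4, 13.4, 15.6 and 15.9 CPM in WT unwounded samples and 48.0, 32.6, 36.1, 50.5 and 45.9 after HDW, with GCN2KO samples at 33.3, 20.5, 24.3, 21.4 and 22.8 and 22.6, 27.2, 24.4, 30.4 and 37.7. WT unwounded samples lay below all others. SLC6A14 was higher in unwounded GCN2KO cells by a log2 fold change of 0.65 (SE 0.119, adjusted p = 0.000147) and lower than WT after HDW at -0.59 (SE 0.142, adjusted p = 0.00191), with groups that overlapped after HDW. HDW raised it by a log2 fold change of 1.45 (SE 0.113, adjusted p = 5.81e-08) in WT cells, the estimate in GCN2KO cells was 0.23 (SE 0.148, adjusted p = 0.279), and the interaction was -1.23 (SE 0.199, adjusted p = 7.72e-05). GCN2KO HDW replicate 5 was again the highest of its group, and without it the genotype difference after HDW was -0.72 (log2).

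SLC6A15 and SLC6A6 responded to HDW in both genotypes. SLC6A15 (chr12:84859491-84913629), a carrier of branched-chain amino acids and proline, was at 71.7, 74.7, 78.1, 75.6 and 80.3 CPM in WT unwounded samples, 88.5, 96.2, 94.9, 91.0 and 89.1 after HDW, with GCN2KO samples at 40.5, 36.8, 38.7, 35.1 and 37.2 unwounded and 44.1, 47.3, 44.1, 43.4 and 53.7 after HDW. GCN2KO samples were below all WT samples, and HDW samples were above unwounded ones in each genotype. It was lower in GCN2KO cells with a log2 fold change of -1.01 (SE 0.061, adjusted p = 7.44e-10) unwounded and -0.98 (SE 0.0566, adjusted p = 3.95e-09) after HDW. After HDW it was higher by a log2 fold change of 0.27 (SE 0.0371, adjusted p = 2.28e-05) in WT and 0.32 (SE 0.0723, adjusted p = 0.00877) in GCN2KO cells, and the interaction estimate was 0.035 (SE 0.081, adjusted p = 0.797). SLC6A6 (chr3:14402576-14489349), the taurine carrier, was at 16.6, 15.5, 17.9, 18.9 and 15.4 CPM in WT unwounded samples and 26.3, 21.7, 24.4, 25.0 and 22.5 after HDW. GCN2KO samples were at 12.5, 17.5, 14.9, 21.5 and 14.3 and 28.1, 27.7, 25.5, 25.7 and 22.9. HDW raised SLC6A6 by a log2 fold change of 0.50 (SE 0.0677, adjusted p = 1.83e-05) in WT and by 0.70 (SE 0.123, adjusted p = 0.00249) in GCN2KO cells, without overlap in either genotype. The genotypes differed with a log2 fold change of -0.061 (SE 0.123, adjusted p = 0.675) unwounded and 0.12 (SE 0.0672, adjusted p = 0.134) after HDW, which did not pass the test.

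The sodium-coupled SLC38 carriers for small neutral amino acids changed less. SLC38A2, the member of system A that amino acid starvation is known to induce, was higher in GCN2KO cells by a log2 fold change of 0.57 (SE 0.0677, adjusted p = 1.65e-06) unwounded and 0.51 (SE 0.0482, adjusted p = 3.68e-07) after HDW, without overlap. In WT cells HDW raised it by a log2 fold change of 0.14 (SE 0.0332, adjusted p = 0.00213), and the estimate in GCN2KO cells was 0.10 (SE 0.071, adjusted p = 0.315). Its neighbour on chromosome 12, SLC38A1, stayed between 514 and 738 CPM. It passed the test only for GCN2KO against WT after HDW (log2 fold change of 0.09, SE 0.0361, adjusted p = 0.0377), a call lost on leaving out any of 7 of the 10 samples (adjusted p = 0.0522 to 0.12), with no filter (adjusted p = 0.282) and with all 20 samples in one fit (adjusted p = 0.267). SLC38A5, a glutamine and serine carrier, was at 165 ± 3.11, 215 ± 4.13, 193 ± 8.74 and 191 ± 9.03 CPM in WT cells before and after HDW and in GCN2KO cells before and after HDW. GCN2KO cells were higher unwounded by a log2 fold change of 0.23 (SE 0.0565, adjusted p = 0.002) and lower after HDW at -0.17 (SE 0.0392, adjusted p = 0.00124), without overlap in either case. HDW raised it by a log2 fold change of 0.38 (SE 0.0289, adjusted p = 4.27e-08) in WT cells, and the interaction was -0.40 (SE 0.0642, adjusted p = 8.17e-05).

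SLC38A6 was higher in GCN2KO cells by a log2 fold change of 0.65 (SE 0.136, adjusted p = 0.000496) unwounded and 0.55 (SE 0.0865, adjusted p = 5.51e-05) after HDW, without overlap. It fell after HDW in both genotypes, with a log2 fold change of -0.32 (SE 0.0936, adjusted p = 0.0107) in WT and -0.40 (SE 0.13, adjusted p = 0.0398) in GCN2KO cells. The second of these was lost on leaving out any of 7 of the 10 samples (adjusted p = 0.0629 to 0.111) and without the 2 unwounded libraries that stood apart (-0.18, adjusted p = 0.309). SLC38A7, a lysosomal glutamine carrier, rose with HDW in WT cells by a log2 fold change of 0.35 (SE 0.034, adjusted p = 6.52e-07) and was lower in GCN2KO than in WT cells after HDW (-0.11, SE 0.0356, adjusted p = 0.0109), without overlap in either. SLC38A10, a widely expressed relative, was higher in GCN2KO cells after HDW by a log2 fold change of 0.25 (SE 0.0726, adjusted p = 0.00702) with overlapping groups, and genes on the opposite strand overlap 7.71% of its exonic bases.

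Transporters of the lysosome that take part in amino acid sensing moved modestly. SLC38A9, the lysosomal arginine sensor of mTORC1, was higher in GCN2KO cells by a log2 fold change of 0.54 (SE 0.0802, adjusted p = 2e-05) unwounded and 0.23 (SE 0.0583, adjusted p = 0.00271) after HDW. It rose with HDW by a log2 fold change of 0.20 (SE 0.056, adjusted p = 0.00766) in WT cells, and the interaction of -0.30 (SE 0.103, adjusted p = 0.0335) was lost on leaving out any of 9 of the 20 samples (adjusted p = 0.0532 to 0.0736), with library size alone (adjusted p = 0.0826) and without the 2 unwounded libraries that stood apart (adjusted p = 0.124). SLC36A1 (chr5:151437046-151492379), a proton-coupled carrier of lysosomes and brush borders, was at 12.4, 13.9, 13.99, 14.9 and 13.5 CPM in WT unwounded samples and 17.8, 17.7, 18.5, 19.9 and 17.7 in WT HDW samples. GCN2KO samples were at 14.99, 17.7, 12.8, 17.8 and 11.8 unwounded and 23.0, 22.6, 21.1, 23.7 and 21.3 after HDW. GCN2KO HDW samples were above all others, and unwounded replicates 3 and 5 were the lowest in that group. HDW raised SLC36A1 by a log2 fold change of 0.41 (SE 0.056, adjusted p = 2.18e-05) in WT and 0.59 (SE 0.11, adjusted p = 0.00329) in GCN2KO cells. The genotypes differed by a log2 fold change of 0.28 (SE 0.0533, adjusted p = 0.000258) after HDW. Unwounded the estimate was a log2 fold change of 0.12 (SE 0.112, adjusted p = 0.34), and without replicates 3 and 5 it was 0.30 (adjusted p = 0.00514). SLC38A9 and SLC36A1 both lie on chromosome 5, whose median shift of 0.35 and 0.36 between the genotypes is given above. Unwounded, the estimate of SLC38A9 (0.54) was above that median and that of SLC36A1 (0.12) below it. After HDW both estimates (0.23 and 0.28) were below it. The part of that shift in their differences was not tested. SLC36A4, a proton-independent relative, was higher in GCN2KO cells by a log2 fold change of 0.21 (SE 0.081, adjusted p = 0.0342) unwounded and 0.20 (SE 0.0595, adjusted p = 0.00713) after HDW. The unwounded call was lost on leaving out WT replicate 1, 2 or 5 or GCN2KO replicate 2 (adjusted p = 0.0545 to 0.112), with library size alone (adjusted p = 0.0768) and with no filter (adjusted p = 0.141).

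The largest rise and the largest fall of any member with HDW in WT cells were both in SLC43 carriers. SLC43A2 (LAT4, chr17:1569268-1628886), a facilitated carrier that lets large neutral amino acids leave cells, was at 20.2, 28.4, 20.7, 28.0 and 25.3 CPM in WT unwounded samples and 4.69, 8.37, 5.93, 4.75 and 5.26 in WT HDW samples. GCN2KO samples held 16.8, 16.3, 12.5, 14.4 and 12.6 unwounded and 14.5, 12.5, 12.7, 12.3 and 9.49 after HDW. WT unwounded samples were the highest and WT HDW samples the lowest, with both GCN2KO groups between them. HDW lowered SLC43A2 with a log2 fold change of -2.08 (SE 0.142, adjusted p = 1.47e-08) in WT cells, the largest fall of any member in any comparison of HDW with unwounded. The estimate in GCN2KO cells was a log2 fold change of -0.22 (SE 0.116, adjusted p = 0.174). The genotype difference was a log2 fold change of -0.76 (SE 0.114, adjusted p = 2.08e-05) unwounded and 1.08 (SE 0.151, adjusted p = 1.73e-05) after HDW, of opposite sign, and the interaction was 1.85 (SE 0.198, adjusted p = 3.59e-07).

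SLC43A1 (LAT3, chr11:57484534-57515780), its relative with a like substrate range, moved the other way at a far lower level. It was at 0.622, 0.807, 0.378, 0.873 and 0.771 CPM in WT unwounded samples, 2.11, 2.31, 2.91, 2.67 and 2.26 after HDW, with GCN2KO samples at 1.66, 1.07, 1.10, 1.02 and 1.32 unwounded and 1.13, 1.31, 1.08, 1.69 and 1.40 after HDW. WT unwounded samples were the lowest and WT HDW samples the highest, without overlap with any other group. HDW raised SLC43A1 by a log2 fold change of 1.80 (SE 0.186, adjusted p = 1.12e-06) in WT cells, and the estimate was 0.081 (SE 0.179, adjusted p = 0.774) in GCN2KO cells. GCN2KO cells were higher unwounded by a log2 fold change of 0.82 (SE 0.228, adjusted p = 0.00482) and lower after HDW at -0.92 (SE 0.143, adjusted p = 4.79e-05), and the interaction was -1.73 (SE 0.263, adjusted p = 4.02e-05).

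SLC43A3 (chr11:57406954-57427580), classed with these carriers by sequence and known to move purine nucleobases, differed between the genotypes more than any other member after HDW. Its level was 6.22, 6.08, 7.02, 6.20 and 5.97 CPM in WT unwounded samples and 12.1, 11.5, 11.4, 13.4 and 10.9 after HDW. GCN2KO samples held 0.830, 1.12, 1.68, 1.23 and 1.20 and 2.67, 2.39, 2.48, 2.09 and 2.40. No group overlapped another. SLC43A3 was lower in GCN2KO cells with a log2 fold change of -2.35 (SE 0.144, adjusted p = 9.18e-10) unwounded and -2.28 (SE 0.0857, adjusted p = 1.25e-10) after HDW. HDW raised it by a log2 fold change of 0.91 (SE 0.0747, adjusted p = 1.05e-07) in WT and 0.99 (SE 0.16, adjusted p = 0.00143) in GCN2KO cells, with an interaction estimate of 0.066 (SE 0.161, adjusted p = 0.809). A gene without a symbol on the same strand shares 29.9% of its exonic bases, and reads there cannot be assigned to either.

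The mitochondrial carriers fell into separate patterns. SLC25A13, the liver-type aspartate and glutamate exchanger of the malate-aspartate shuttle, was lower in GCN2KO cells with a log2 fold change of -0.55 (SE 0.0712, adjusted p = 4.46e-06) unwounded and -0.59 (SE 0.0474, adjusted p = 8.38e-08) after HDW, with no overlap. SLC25A12, its relative of muscle and brain, passed the test only in WT cells, where it was lower after HDW with a log2 fold change of -0.31 (SE 0.0503, adjusted p = 0.000116). SLC25A15, the ornithine carrier of the urea cycle, rose with HDW in WT cells by a log2 fold change of 0.70 (SE 0.091, adjusted p = 1.25e-05). It was lower in GCN2KO cells after HDW with a log2 fold change of -0.71 (SE 0.0849, adjusted p = 3.83e-06), and the unwounded estimate was -0.19 (SE 0.109, adjusted p = 0.137). The estimate of its HDW response in GCN2KO cells was a log2 fold change of 0.20 (SE 0.101, adjusted p = 0.165), and the interaction was -0.52 (SE 0.133, adjusted p = 0.0065).

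For 5 members the genotype difference changed sign with wounding. SLC1A1, SLC6A9, SLC6A14, SLC38A5 and SLC43A1 were higher in GCN2KO than in WT cells when unwounded and lower after HDW, a pair of calls found for 1.07% of the 15238 genes tested in both comparisons. The interaction passed the test for each of them. After HDW the groups overlapped for SLC1A1, SLC6A9 and SLC6A14, and the call of SLC6A9 was lost in 6 of 17 alternative fits. SLC43A2 showed the opposite pair of calls, which 0.866% of genes did. Another 9 members were higher in GCN2KO cells in both comparisons (26.7% of genes), among them SLC3A2, SLC7A11, SLC1A4 and SLC38A2. SLC1A3, SLC6A15, SLC43A3 and SLC25A13 were lower in both (26.9% of genes). These comparisons have no sample in common.

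**Figure D5:**
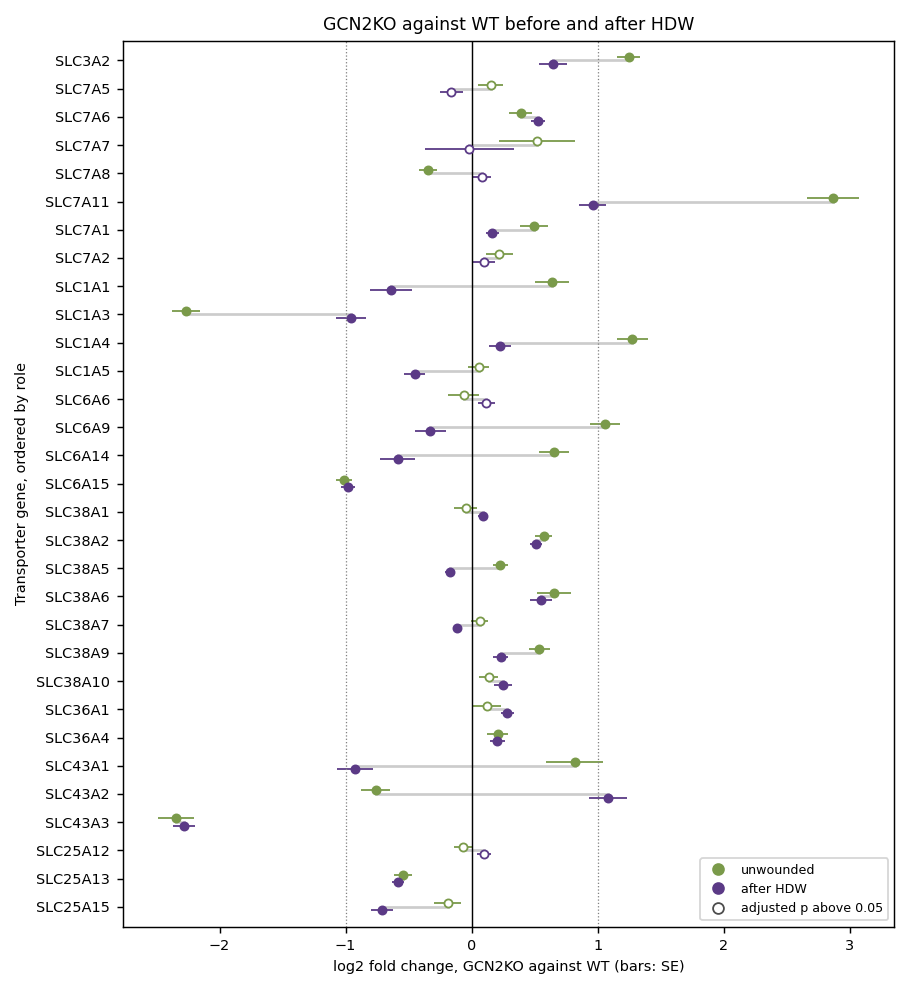
Log2 fold change of GCN2KO against WT for 31 transporters in unwounded cells (green) and after HDW (purple), with SE bars and open symbols where the adjusted p was above 0.05. For SLC1A1, SLC6A9, SLC6A14, SLC38A5 and SLC43A1 the green point lies right of 0 and the purple point left of it, SLC43A2 shows the reverse, and SLC43A3 and SLC6A15 lie at nearly the same place on the left.

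Members were called after HDW in both genotypes, in WT cells alone, or in neither. SLC7A6, SLC6A6, SLC6A15, SLC36A1 and SLC43A3 were higher after HDW in both genotypes, as were 7.2% of the 14899 genes tested in both, and the interaction passed the test for none of these 5 by edgeR, with an unadjusted p of 0.197 or more for each. Another 15 members were higher in WT cells and did not pass the test in GCN2KO cells, beside 18.4% of genes. The interaction passed for 10 of these 15, which were SLC3A2, SLC1A1, SLC1A4, SLC1A5, SLC6A9, SLC6A14, SLC38A5, SLC38A9, SLC43A1 and SLC25A15. For SLC7A5, SLC7A1, SLC7A2, SLC38A2 and SLC38A7 a difference between the responses was not shown. SLC7A8, SLC1A3, SLC43A2 and SLC25A12 were lower in WT cells and did not pass the test in GCN2KO cells (18.3% of genes), and the interaction was higher for the first 3 of these 4. SLC7A11 alone was higher in WT and lower in GCN2KO cells (1% of genes), and SLC38A6 alone was lower in both (5.97% of genes).

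The other amino acid carriers of the SLC families and the cystine exporter CTNS were counted as a second list of 36 genes, of which 12 to 14 were abundant enough to test. In unwounded cells 8 of 13 tested were higher and 3 lower in GCN2KO (33.4% and 33.1% of all genes), and after HDW 6 of 14 were higher and 2 lower (35.9% and 35.8%). SLC6A17, a synaptic vesicle carrier of neutral amino acids, had the largest estimate between the genotypes. It had 2 counts in all WT unwounded libraries together and 73 in GCN2KO, and 11 and 77 after HDW. With so few WT counts, it passed the filter on low counts through the GCN2KO libraries alone. It could therefore not have been called lower, and it is among the 8 and the 6 that were higher. HDW raised 6 and lowered 3 of 12 in WT cells (26.1% and 25.2% of all genes), and raised 3 and lowered 1 of 14 in GCN2KO cells (11.9% and 10.8%). In WT cells, CTNS was higher after HDW by a log2 fold change of 0.72 (SE 0.0607, adjusted p = 1.39e-07). The interaction was lower for 2 of 14 and higher for 0, near the 12.5% and 11.2% of all genes. The 2 were CTNS (log2 difference of -0.44, SE 0.106, adjusted p = 0.00373) and SLC15A4 (-0.26, SE 0.0724, adjusted p = 0.0098), a lysosomal histidine and peptide carrier.

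The genes of amino acid sensing at the lysosome, from the sestrins and the GATOR and Rag complexes to mTORC1, were a list of 30, all tested. GCN2KO cells were higher for 9 and lower for 10 unwounded, near the 33.4% and 33.1% of all genes, and higher for 10 and lower for 13 after HDW, beside 35.9% and 35.8%. SESN2, a leucine sensor that is itself a target of ATF4, was at 49.9 ± 5.72, 83.6 ± 12.0, 106 ± 7.31 and 113 ± 3.40 CPM in WT cells before and after HDW and in GCN2KO cells before and after HDW. It was higher in unwounded GCN2KO cells by a log2 fold change of 1.09 (SE 0.0801, adjusted p = 6.87e-09), rose with HDW in WT cells by 0.74 (SE 0.0906, adjusted p = 6.42e-06), and had an interaction of -0.65 (SE 0.115, adjusted p = 0.000222). SEC13, a GATOR and vesicle coat subunit, was higher in GCN2KO cells by a log2 fold change of 1.49 (SE 0.0845, adjusted p = 3.98e-10) unwounded and 1.02 (SE 0.0746, adjusted p = 3.38e-08) after HDW. CASTOR1, an arginine sensor, was lower with a log2 fold change of -1.31 (SE 0.244, adjusted p = 0.00018) unwounded, and 46% of its exonic bases are shared with another gene on its strand. HDW raised 9 and lowered 11 genes of this list in WT cells (26.1% and 25.2% of all genes), and raised 5 and lowered 3 in GCN2KO cells (11.9% and 10.8%), while the interaction was higher for 1 and lower for 5 (11.2% and 12.5%).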

How the data were processed

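The authors trimmed the reads with Trimmomatic, aligned them to GRCh38 with STAR and counted them per gene with featureCounts, as the study's methods and the submitters' processing notes give, and they deposited 1 table of raw counts for each of the 20 samples. The strand setting of the counting is not given in the sources used here. Counts that fall on 2 overlapping genes can therefore not be assigned by strand.

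Symbols were joined to the deposited Ensembl identifiers, and exon lengths and overlaps were taken from the GENCODE release 44 annotation. Each pairwise comparison was fitted on its 10 samples with edgeR 4.0.16 in R 4.3.3 (TMM scaling, filterByExpr with a minimum count of 10 and a minimum total of 15, quasi-likelihood test), and the interaction on all 20. Adjusted p-values were corrected by Benjamini-Hochberg over all genes tested, at a threshold of 0.05, and DE genes also changed by 1 or more on the log2 scale in either direction. The scripts were tested on simulated data. FPKM divides the scaled CPM (counts per 1000000 counts) by kilobases of merged exons, or of the canonical transcript.

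The 33 members and both other lists were chosen with earlier results of these data known. Full values per sample were given for SLC3A2, SLC7A11, every member that was a DE gene in any test and, in each test, the 3 higher and 3 lower members with the largest called fold change and groups that did not overlap (for the interaction, without the last condition). From the other lists, up to 2 higher and 2 lower genes per test could be named.

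Results were recomputed with DESeq2 1.42.0, with its size factors used in edgeR, without TMM, without the filter or with one on a mean of 50 counts, with a replicate block, with all 20 samples in one fit, at an adjusted p of at most 0.01, and with each sample left out in turn. Leaving out unwounded GCN2KO replicates 3 and 5 together and the canonical lengths were added after seeing the data. Same-numbered samples were not shown to deviate together, so replicate numbers were not taken as pairs. Depth was 14083504 to 34611570 counts per library.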

Additional observations from a re-analysis of the deposited data

Results flagged for a closer look

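In 3 of 124 groups of 5 samples, 1 sample lay far from the other 4, and chance alone would do so in about 1 in 20 groups. SLC1A3 stood at 81.3 CPM in GCN2KO unwounded replicate 1, above 55.8 to 61.0 in the others. SLC43A3 stood at 7.02 in WT unwounded replicate 3, above 5.97 to 6.22. SLC25A12 stood at 21.1 in WT HDW replicate 2, below 23.8 to 24.5. Each was in a different library.

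For 14 members the interaction test of edgeR over all genes found unequal HDW responses in GCN2KO and WT cells. The difference (response in GCN2KO minus response in WT, log2) was negative for SLC7A11 (-1.90), SLC43A1 (-1.73), SLC6A9 (-1.38), SLC1A1 (-1.27), SLC6A14 (-1.23), SLC1A4 (-1.04), SLC3A2 (-0.60), SLC25A15 (-0.52), SLC1A5 (-0.51), SLC38A5 (-0.40) and SLC38A9 (-0.30). It was positive for SLC43A2 (1.85), SLC1A3 (1.31) and SLC7A8 (0.43).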

How the results depend on the processing

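Of 109 log2 fold changes followed over 2067 alternative fits, 92 passed the adjusted p, 9 of these lost it in at least 1 alternative and none of the 92 changed sign. The counts of members higher or lower stayed within 1.5 times except for HDW in GCN2KO cells. The counts of DE genes did so except there and for GCN2KO against WT after HDW. The cause was not tested. In GCN2KO cells, HDW raised 8 members with all 20 samples in one fit, and 5 to 8 with 1 sample left out (8 without GCN2KO unwounded replicate 2). It lowered 1 with the replicate block, with all 20 samples in one fit and without unwounded replicates 3 and 5. It lowered 0 at an adjusted p of at most 0.01, and 0 to 3 with 1 sample left out (0 without HDW replicate 3). The calls over all genes moved too, from 1880 higher and 1706 lower in the main fit. They were 2736 and 2840 with all 20 samples in one fit, and 2332 and 2185 without unwounded replicate 2. With the replicate block they were 1239 and 882, and without HDW replicate 3 they were 1183 and 887. SLC43A3 became a DE gene there, 1 in place of 0, with library size alone, with the replicate block, without unwounded replicates 3 and 5, and in a range of 0 to 1 with 1 sample left out (without unwounded replicate 3 or HDW replicate 4). GCN2KO against WT after HDW held 2 to 4 DE genes with 1 sample left out (4 without WT HDW replicate 2 or GCN2KO HDW replicate 5). The count of DE genes over all genes in those fits is not given here. Estimates that had not passed the test changed sign for SLC6A6 between unwounded genotypes (-0.19 to 0.014 with 1 sample left out, 0.039 without replicates 3 and 5), and for HDW in GCN2KO cells for SLC3A2 (-0.057 to 0.013), SLC1A4 (-0.088 to 0.0012) and SLC6A9 (-0.17 to 0.058), each with 1 sample left out. The interaction estimates of SLC6A15 (-0.022 to 0.060) and SLC43A3 (-0.037 to 0.22) did so with 1 sample left out, and that of SLC36A1 without unwounded replicates 3 and 5 (-0.020). The replicate block lost the calls of SLC36A4 between unwounded genotypes (adjusted p = 0.0519), SLC38A1 after HDW (adjusted p = 0.0837) and SLC38A6 with HDW in GCN2KO cells (adjusted p = 0.0739). Same-numbered samples showed a mean correlation of their deviations of 0.0386, 0.0304, 0.0221 and -0.159 in the 4 comparisons. Of 5 samples, 1, 1, 3 and 0 correlated best with their own number. Pairing by number was not shown, and with 5 samples per group this check cannot exclude it. For SLC1A2 and SLC16A10 the counts allowed no test. Genes with few counts, such as SLC7A7 and SLC43A1, have wide errors at this depth.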

Other observations

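Within groups, several members had their highest levels in the same replicates. In WT unwounded cells, replicates 2 and 4 held both of the highest levels for 11 of 31 members, among them SLC3A2, SLC7A5, SLC7A11, SLC1A4 and SLC6A9, beside 14.1% of all 16536 genes. In WT HDW cells, replicates 2 and 3 did so for 11 members, 9 of which are also among the first 11 (SLC3A2, SLC7A5, SLC7A11, SLC7A1, SLC1A4, SLC1A5, SLC6A9, SLC38A10 and SLC43A2), beside 19.1% of genes. In GCN2KO unwounded cells, replicates 2 and 4 did so for 11 members, beside 17.9% of genes, and in GCN2KO HDW cells replicates 4 and 5 did so for 8, beside 14.7%. These pairs of replicates were chosen after their values were seen.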
